A study of Homo sapiens with 9 samples.

Results

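ATF4 and 5 genes that it is known to switch on, ASNS, PSAT1, CTH, STC2 and SESN2, were followed across the 9 arrays of a study of the G protein-coupled receptor GPR39 in HEK293, a line derived from human embryonic kidney. The 6 genes were chosen by name, as the probe sets whose platform annotation carries one of these symbols. The choice was made with earlier results of these data known. Each gene had 1 such probe set, so 6 of the 53617 probe sets on the array are described, and all 6 passed the filter on dim signals in all 9 arrays. The agonist group was cells labelled as GPR39 Overexpressed and given TC-G-1008, a synthetic GPR39 agonist, at 1 uM. The GPR39 group was cells with the same genotype label, given cumate, the inducer of cumate-switch expression systems, at 0.03 mg/mL. The mock group was naive control cells, titled as minus cumate, with no dose of cumate or TC-G-1008 given. Each group had 3 arrays, and all cells were kept in DMEM with 10% serum. Whether cumate was present together with TC-G-1008 is not given, nor is an exposure time. The replicates are called biological with no separate cultures named, so each p-value reflects the spread among 3 arrays a group, which may be technical. The main fit pools this spread over all 9 arrays, so the mock arrays also enter its p-values for agonist against GPR39. In the GPR39 against mock comparison the receptor, any other difference of the cells with that genotype label, and cumate cannot be told apart. In the agonist against GPR39 comparison TC-G-1008 and a possible lack of cumate cannot be told apart. In the agonist against mock comparison the genotype label, TC-G-1008 and possible cumate cannot be told apart.

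ATF4 is a bZIP transcription factor at the end of the integrated stress response. Kinases that sense amino acid shortage, unfolded protein in the endoplasmic reticulum, double-stranded RNA or haem shortage phosphorylate the initiation factor eIF2alpha, general translation slows, and translation of the ATF4 mRNA rises. ATF4 then binds C/EBP-ATF response elements, usually as a dimer with a C/EBP factor, and raises genes of amino acid synthesis, amino acid uptake and tRNA charging. ASNS makes asparagine from aspartate and glutamine. PSAT1 carries out the transamination step of serine synthesis. CTH cleaves cystathionine to cysteine, the last step of transsulfuration. STC2 is a secreted glycoprotein induced by stress. SESN2 binds leucine and restrains the growth kinase complex mTORC1. The arrays measured RNA, so the translation of ATF4 itself was not measured.

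The promoters of ASNS, CTH and STC2 are shown because ASNS holds the best known response element of the family and CTH and STC2 were the members with the largest changes. Each is the 250 bases before a RefSeq transcript start in GRCh38.p14, 5′ to 3′ on the strand of the gene, at chr7:97872409-97872658 (minus strand) for ASNS, chr1:70411018-70411267 (plus strand) for CTH and chr5:173328415-173328664 (minus strand) for STC2. Capitals mark matches to TGATGNAA, the core of the C/EBP-ATF response element, searched on both strands.
ASNS: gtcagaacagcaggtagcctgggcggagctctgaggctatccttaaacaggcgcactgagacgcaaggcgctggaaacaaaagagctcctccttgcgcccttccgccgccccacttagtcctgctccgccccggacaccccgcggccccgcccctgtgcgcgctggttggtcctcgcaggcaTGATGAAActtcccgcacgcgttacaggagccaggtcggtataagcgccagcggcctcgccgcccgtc
CTH: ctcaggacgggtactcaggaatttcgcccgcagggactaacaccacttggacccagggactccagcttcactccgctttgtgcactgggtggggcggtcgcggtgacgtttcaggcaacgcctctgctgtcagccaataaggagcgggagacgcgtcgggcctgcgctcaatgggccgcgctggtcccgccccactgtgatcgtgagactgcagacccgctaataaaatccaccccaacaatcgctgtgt
STC2: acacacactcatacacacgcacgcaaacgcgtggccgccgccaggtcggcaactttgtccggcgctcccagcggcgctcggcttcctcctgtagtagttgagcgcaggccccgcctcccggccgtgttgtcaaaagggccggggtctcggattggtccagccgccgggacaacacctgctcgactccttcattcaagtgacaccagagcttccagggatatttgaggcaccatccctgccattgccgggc
ASNS had 1 match, TGATGAAA, on the strand of the gene from base -68 to base -61 counted from the transcript start. The 250 bases before the second ASNS start in the table held none, and neither did those of ATF4, PSAT1, CTH, STC2 or SESN2. A match was held by 3.14% of all 35116 RefSeq promoters and by 1.79% of the 12769 that belong to genes with a tested and named probe set. Of the 489 promoters of genes that were higher in the agonist than in the GPR39 arrays, 2.45% held one. A match is a run of letters in this window, and binding was not measured.

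Values are log2 signals per probe set, so a difference of 1 is a doubling. Array medians lay between 3.13 and 3.22, and the 40th percentile, used below as the limit of dim signals, between 2.63 and 2.70. Mock replicate 1 stood apart from its group. Its correlation across probe sets averaged 0.988 with the GPR39 arrays and 0.985 with the other mock arrays. On the second principal component, with 20.4% of the variance, it lay at 22.0, beside the GPR39 arrays at 24.2 to 27.3, while the other mock arrays lay at -22.9 and -38.7. On the first component, with 31.7%, it lay at -26.7, nearer the other mock arrays at -37.5 and -38.4 than the GPR39 arrays at -5.0 to -2.7. Mock replicate 1 was the highest mock array for 5 of the 6 members, and the share of all tested probe sets for which it was highest was not worked out. Because this array stood apart, the members' comparisons with mock are also given without it. For the 31 named genes of the pathway lists the calls it changes are given below. The GPR39 probe set itself read between 2.43 and 2.65 in all 9 arrays and did not pass the filter, so overexpression of the receptor was not visible with this probe set, and where its probes lie in the receptor gene or the introduced copy is not known. Of the HEK293 markers with a named probe set, IRS4, LIN28B and VIM averaged between 6.94 and 10.54 in every group and PAX2 between 3.61 and 4.02. Their summed linear signal ran from 1166 to 1552 in the agonist arrays, from 1376 to 1404 in the GPR39 arrays and from 2109 to 2191 in the mock arrays. IRS4 was called lower for GPR39 against mock (log2 change -1.03, limma adjusted p = 0.0162) and for agonist against mock (-0.85, adjusted p = 0.0053). LIN28B was called lower for agonist against GPR39 (-0.41, limma adjusted p = 0.00751) and for agonist against mock (-0.30, adjusted p = 0.0174), and VIM for agonist against mock (-0.46, adjusted p = 0.00368). The fibroblast markers DCN and LUM and the hepatocyte marker ALB were too dim to be tested, while the hepatocyte markers APOA1, at group means of 3.64 to 3.86, and TTR, at 4.36 to 4.47, were tested and passed in no comparison. The summed linear signal of 4 leukocyte markers ran from 242.0 to 281.4 in the agonist arrays, from 214.1 to 217.6 in the GPR39 arrays and from 107.7 to 135.1 in the mock arrays. It was mostly CD68, a lysosomal glycoprotein gene, which was called higher for GPR39 against mock (0.90, limma adjusted p = 0.0124) and for agonist against mock (1.23, adjusted p = 0.0004). TYROBP, a myeloid adaptor gene, averaged 3.53 in the agonist arrays, 3.34 in the GPR39 arrays and 2.85 in the mock arrays, and its agonist against mock change of 0.68 did not pass (limma adjusted p = 0.0719). LAPTM5 averaged between 3.10 and 3.26 and CD14 between 2.76 and 2.85 in the 3 groups, and neither passed in any comparison. The part of either sum in the results below was not tested.

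All 6 genes were higher in the agonist arrays than in the GPR39 arrays, and none of the 6 overlapped between these groups, as was so for 13.5% of tested probe sets. CTH rose most, 2.44-fold, and PSAT1 least, 1.22-fold. Relative to mock the agonist arrays were higher by 1.39-fold for PSAT1 to 3.46-fold for CTH. The GPR39 arrays were also above mock on average for all 6, by 1.10-fold to 1.42-fold, but no member passed the test in that comparison.

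ATF4, the transcription factor, read 9.26, 9.19 and 9.31 in the agonist arrays, 8.61, 8.79 and 8.66 in the GPR39 arrays and 8.50, 8.64 and 8.50 in the mock arrays. The agonist arrays lay above all others, while the GPR39 and mock arrays overlapped. The log2 change was 0.57 ± 0.08 for agonist against GPR39 (SE of the limma fit, n = 3 each, adjusted p = 0.00455), a 1.48-fold rise with a 95% interval of 1.31 to 1.68. It was 0.71 ± 0.08 for agonist against mock (limma adjusted p = 0.000856) and 0.14 ± 0.08 for GPR39 against mock (limma adjusted p = 0.455).

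ASNS, the asparagine synthetase gene whose promoter carries the capitalised element above, read 7.87, 7.89 and 7.65 in the agonist arrays, 6.98, 7.05 and 7.05 in the GPR39 arrays and 6.88, 6.82 and 6.65 in the mock arrays. The 3 groups did not overlap, and the highest mock array lay 0.10 below the lowest GPR39 array. The change was 0.78 ± 0.09 for agonist against GPR39 (limma adjusted p = 0.00246), or 1.72-fold with a 95% interval of 1.48 to 1.98. ASNS was 2.03-fold higher in the agonist than in the mock arrays (log2 change 1.02 ± 0.09, limma adjusted p = 0.000308). The GPR39 against mock change was 0.24 ± 0.09 (limma adjusted p = 0.281).

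PSAT1, the aminotransferase of serine synthesis, read 10.44, 10.46 and 10.42 in the agonist arrays, 10.18, 10.14 and 10.12 in the GPR39 arrays and 10.08, 9.93 and 9.89 in the mock arrays. The groups did not overlap, and PSAT1 had the narrowest spread of the 6 members in the agonist arrays, an SD of 0.02. The change for agonist against GPR39 was 0.29 ± 0.07 (limma adjusted p = 0.0381), with a 95% fold interval of 1.10 to 1.37. This call was lost on leaving out any 1 of the 6 arrays compared, with adjusted p between 0.0735 and 0.124, and the change then lay between 0.28 and 0.31. Against mock the agonist arrays were higher by 0.47 ± 0.07 (limma adjusted p = 0.00319), a call kept under all 13 alternatives. The GPR39 against mock change was 0.18 ± 0.07 (limma adjusted p = 0.289).

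CTH, the cystathionine gamma-lyase gene, read 7.06, 7.10 and 7.16 in the agonist arrays, 5.71, 5.78 and 5.96 in the GPR39 arrays and 5.47, 5.36 and 5.12 in the mock arrays. The lowest agonist array lay 1.10 above the highest GPR39 array. The change was 1.29 ± 0.11 for agonist against GPR39 (limma adjusted p = 0.000475), a fold with a 95% interval of 2.06 to 2.89, and only 0.452% of all tested probe sets had a change at least as high. For agonist against mock it was 1.79 ± 0.11 (limma adjusted p = 3.63e-05). The GPR39 arrays did not overlap with mock, but the change of 0.50 ± 0.11 did not pass (limma adjusted p = 0.0777). Without mock replicate 1 it was 0.58 and passed (adjusted p = 0.0358).

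STC2, the stanniocalcin gene, read 7.67, 7.53 and 7.73 in the agonist arrays, 6.73, 6.89 and 6.72 in the GPR39 arrays and 6.44, 6.40 and 6.33 in the mock arrays. No groups overlapped, with the lowest agonist array 0.63 above the highest GPR39 array and the lowest GPR39 array 0.28 above the highest mock array. The change was 0.86 ± 0.08 for agonist against GPR39 (limma adjusted p = 0.00098), 1.81-fold with a 95% interval of 1.59 to 2.07. For agonist against mock it was 1.25 ± 0.08 (limma adjusted p = 6.52e-05). For GPR39 against mock it was 0.39 ± 0.08 (limma adjusted p = 0.0746).

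SESN2, the leucine-binding restraint on mTORC1, read 7.77, 7.82 and 7.97 in the agonist arrays, 7.19, 7.15 and 6.98 in the GPR39 arrays and 7.11, 6.74 and 6.85 in the mock arrays. The agonist arrays lay above all others, and the GPR39 and mock arrays overlapped through mock replicate 1. The change was 0.75 ± 0.11 for agonist against GPR39 (limma adjusted p = 0.00621), 1.68-fold with a 95% interval of 1.41 to 2.01. It was 0.95 ± 0.11 for agonist against mock (limma adjusted p = 0.00108) and 0.20 ± 0.11 for GPR39 against mock (limma adjusted p = 0.434).

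**Figure D1:**
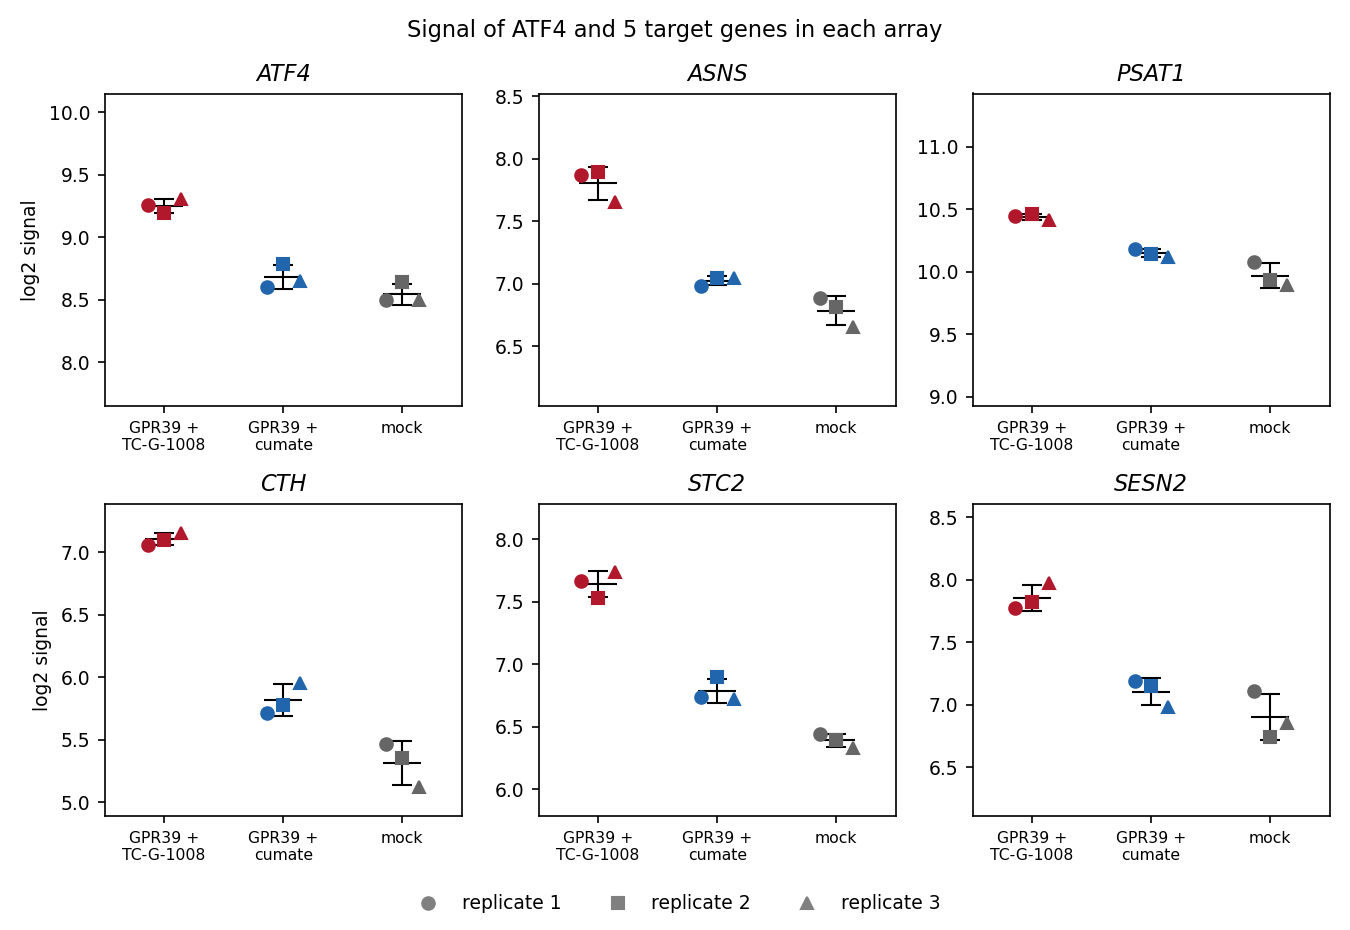
Log2 signal (vertical axis, each panel spanning the same range) of ATF4 and 5 target genes in each of 9 arrays, with marker shapes for replicates 1 to 3, a horizontal bar for the group mean and error bars of 1 SD (n = 3), the agonist group marked GPR39 + TC-G-1008 and the GPR39 group GPR39 + cumate. In every panel the agonist arrays lie above the GPR39 and mock arrays, by at least 0.24 for PSAT1 and at least 1.10 for CTH.

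Set against all tested probe sets, 6 of 6 members were called higher for agonist against GPR39, where 3.12% of the 33376 tested probe sets were, and 3.59% of the 12827 with a gene name. Against mock 6 of 6 were called higher in the agonist arrays and did not overlap, where 6.11% of all tested probe sets were called higher and 14.8% did not overlap in that direction. These comparisons share the agonist arrays, and the genes are known to share a regulator, so the 6 calls are not independent of each other. The genes were also chosen with earlier results of these data known, so the counts are not a test of the set. The members' median log2 change was 0.76 for agonist against GPR39, 0.99 for agonist against mock and 0.22 for GPR39 against mock, where the medians over all tested probe sets were 0.01, 0.02 and 0.01. For GPR39 against mock 0 of 6 passed in limma, with 0.749% of all tested probe sets called higher, and 4 of 6, ASNS, PSAT1, CTH and STC2, had an unadjusted p under 0.05, as did 14.8% of all tested probe sets. These 4 also did not overlap between GPR39 and mock, which held for 11.4% of tested probe sets. In the same 4 genes every agonist array lay above every GPR39 array and every GPR39 array above every mock array, an order found in 2.62% of tested probe sets. Without mock replicate 1 the GPR39 against mock changes were 0.11 for ATF4, 0.29 for ASNS, 0.24 for PSAT1, 0.58 for CTH, 0.42 for STC2 and 0.31 for SESN2, and CTH alone passed. The agonist against mock changes without it lay between 0.53 for PSAT1 and 1.87 for CTH, and all 6 passed (limma adjusted p up to 0.00371).

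Between 61.9% of the agonist against mock difference, for PSAT1, and 80.5%, for ATF4, lay between the agonist and GPR39 arrays. The contrast of the agonist against GPR39 change minus the GPR39 against mock change was positive for all 6, from 0.11 ± 0.12 for PSAT1 to 0.79 ± 0.18 for CTH (SE of the limma fit). None of the 6 passed (limma adjusted p from 0.106 to 0.714), and 1.03% of all tested probe sets passed in this contrast. An unadjusted p under 0.05 was found for 5 of 6, and for 15.3% of all tested probe sets. A difference in size between the 2 changes was therefore not established for any member.

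**Figure D2:**
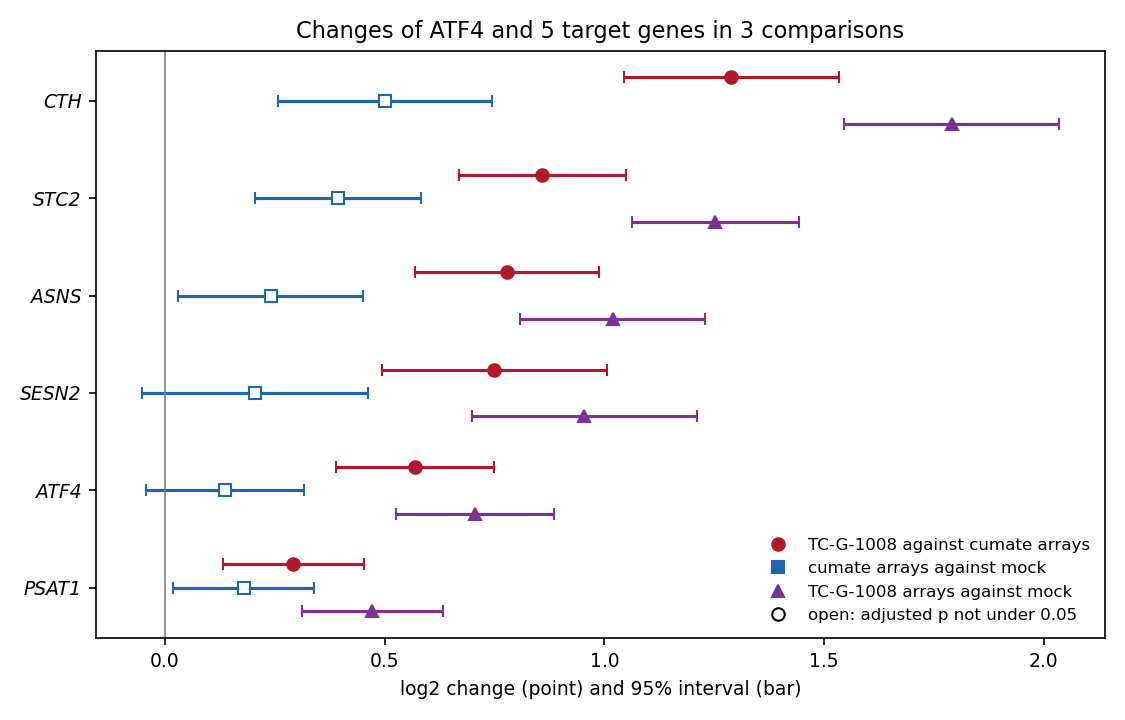
Log2 changes (points) with 95% intervals (bars) of the 6 genes for agonist against GPR39 (red), GPR39 against mock (blue, cumate arrays in the key) and agonist against mock (purple), ordered by the first, with open symbols where the adjusted p was not under 0.05. The agonist against GPR39 changes run from 0.29 for PSAT1 to 1.29 for CTH, and all 6 symbols of GPR39 against mock are open.

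Whether the targets moved by the same amount as ATF4 was examined within arrays. The difference between the log2 signal of a target and that of ATF4 was taken within each array and compared between groups, for 5 targets. CTH minus ATF4 was higher in the agonist than in the GPR39 arrays by 0.72 and STC2 minus ATF4 by 0.29, with no overlap between the groups, as was so for 0.782% of the other tested probe sets. PSAT1 minus ATF4 differed by -0.28 in the same comparison, also with no overlap, a direction found without overlap in 75.1% of the other tested probe sets. ASNS minus ATF4 and SESN2 minus ATF4 differed by 0.21 and 0.18, and their groups overlapped. With 3 arrays against 3 an exact two-sided permutation test cannot give a p below 0.1, which is what it gave for CTH, STC2 and PSAT1, against 0.3 for ASNS and 0.2 for SESN2. This exact test therefore cannot pass a threshold of 0.05 with 3 arrays a group, and unequal change between ATF4 and its targets was not established by it.

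Relatives and route neighbours of the members did not all follow them. STC1, the paralog of STC2, read 8.29, 8.26 and 8.06 in the agonist arrays, 6.32, 6.46 and 6.39 in the GPR39 arrays and 6.09, 5.83 and 5.99 in the mock arrays. STC1 rose by 1.81 ± 0.10 for agonist against GPR39 (limma adjusted p = 4.5e-05), 0.95 more than STC2 within the same arrays. SESN1, a paralog of SESN2, changed by 0.0034 ± 0.06 for agonist against GPR39 (limma adjusted p = 0.983) and was lower in the agonist than in the mock arrays, by -0.31 ± 0.06 (limma adjusted p = 0.0136), a call lost with centring on the 75th percentile (adjusted p = 0.0535). SESN3, the other paralog, read 6.92, 7.16 and 6.81 in the agonist arrays, 6.53, 6.55 and 6.69 in the GPR39 arrays and 7.46, 7.24 and 7.25 in the mock arrays. SESN3 fell in the GPR39 relative to the mock arrays, with a change of -0.72 ± 0.11 (limma adjusted p = 0.0246), and that call was lost without any 1 of the GPR39 arrays, without mock replicate 2 and without mock replicate 3, with adjusted p up to 0.105. SESN2 minus SESN3 was higher in the GPR39 than in the mock arrays by 0.93, where SESN2 alone changed by 0.20 and overlapped. The same difference was higher in the agonist than in the GPR39 arrays by 0.38. Neither case overlapped (exact permutation p = 0.1 each, the smallest possible). The share of probe sets without such overlap was not worked out for this pair or the pairs below.

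CBS, which makes the cystathionine that CTH cleaves, read 5.94, 5.89 and 6.10 in the agonist arrays, 6.08, 6.08 and 6.11 in the GPR39 arrays and 6.13, 6.08 and 6.12 in the mock arrays. Its agonist against GPR39 change was -0.11 ± 0.07 (limma adjusted p = 0.397), and CTH minus CBS was 1.40 higher in the agonist than in the GPR39 arrays, with no overlap (exact p = 0.1, the smallest possible). The gap of 1.10 in CTH alone was wider than the range of CBS in these arrays, so the lack of overlap followed from CTH itself. PHGDH and PSPH, the serine synthesis enzymes before and after PSAT1, changed by 0.26 ± 0.08 and 0.0009 ± 0.07 (limma adjusted p = 0.0883 and 0.996). PSAT1 minus PSPH was higher by 0.29 in the agonist than in the GPR39 arrays, with no overlap, whereas PSAT1 minus PHGDH differed by 0.03 and overlapped. For PSPH too the lack of overlap followed from PSAT1 itself, whose gap of 0.24 was wider than the range of PSPH. ASNSD1, a gene with an asparagine synthetase domain, changed by 0.22 ± 0.11 (limma adjusted p = 0.288).

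**Figure D3:**
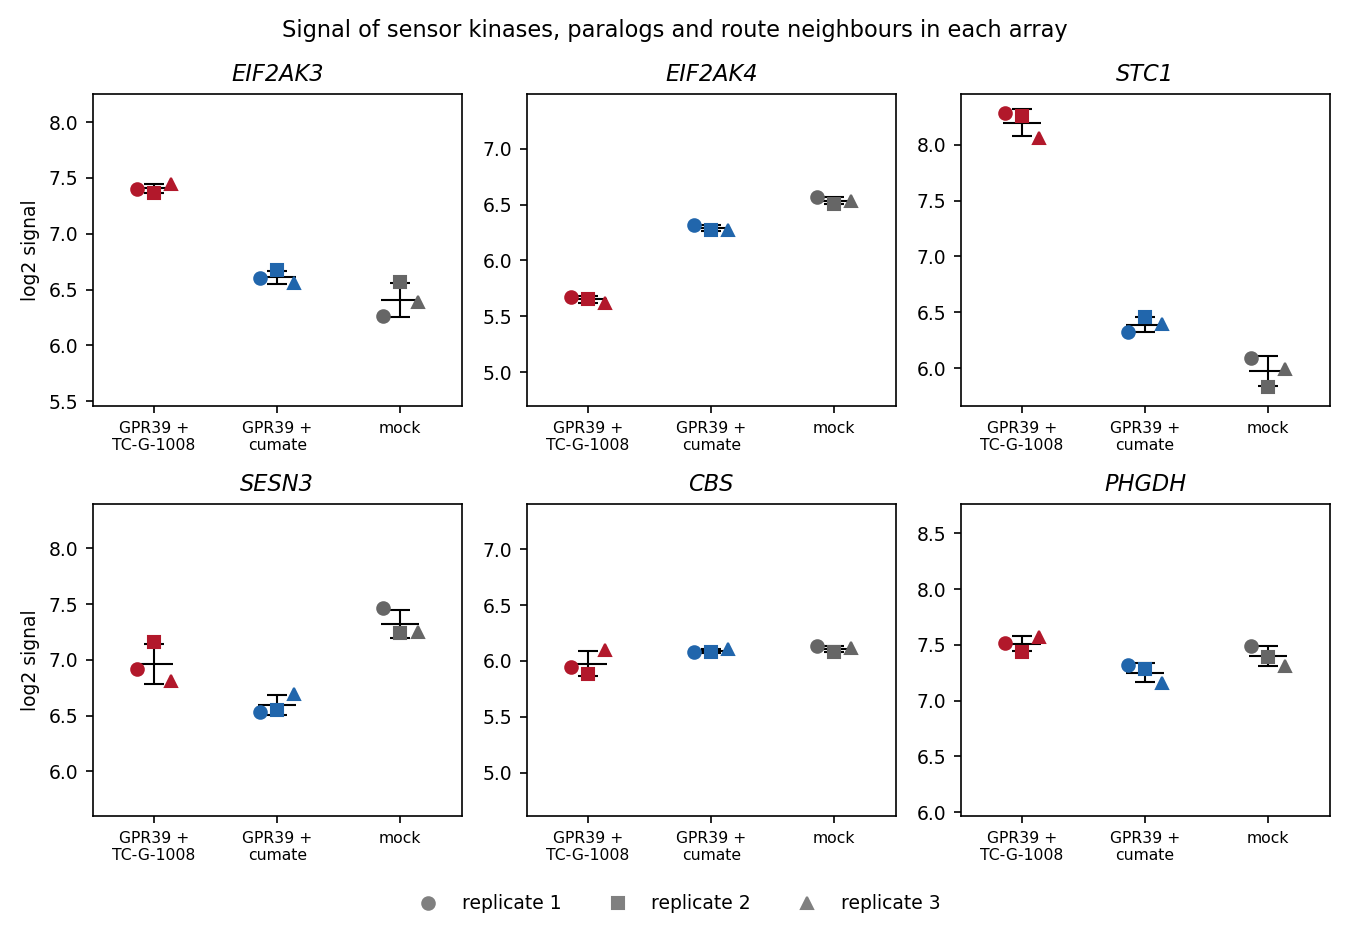
Log2 signal (vertical axis, each panel spanning the same range) of 2 eIF2alpha kinase genes, the paralogs STC1 and SESN3 and the route neighbours CBS and PHGDH in each array, with replicates as marker shapes, group means as horizontal bars and error bars of 1 SD (n = 3). EIF2AK3 and STC1 are highest in the agonist arrays, EIF2AK4 is lowest there, and CBS stays between 5.89 and 6.13.

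The wider pathway was taken from 9 lists of 81 genes, of which 51 had a named probe set and all 51 were tested. The lists were also chosen with earlier results of these data known. For agonist against GPR39 9 of the 51 were called higher and 4 lower, where 3.59% of all named probe sets were called higher and 9.28% lower. The counts were 13 and 9 for agonist against mock, where 7.73% and 13.6% of named probe sets were called. For GPR39 against mock they were 1 and 1, with 1.08% and 0.561%. These shares are also the background for the counts of each list below. The median change of the 51 genes was 0.03 for agonist against GPR39, against 0.01 over all tested probe sets. Without mock replicate 1, 21 of the 22 calls for agonist against mock among the 31 named list genes were kept, LARS1 being lost (adjusted p = 0.086). Both calls for GPR39 against mock, ATF3 and SESN3, were kept as well, and STC1 passed in addition, at 0.48 (adjusted p = 0.0497). None of the 10 amino acid transporter genes listed had a named probe set, and they were not analysed here.

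The eIF2alpha kinases, which act upstream of ATF4, went in both directions. EIF2AK3, which encodes the endoplasmic reticulum kinase PERK, read 7.40, 7.37 and 7.45 in the agonist arrays, 6.60, 6.67 and 6.56 in the GPR39 arrays and 6.27, 6.57 and 6.39 in the mock arrays. EIF2AK3 rose by 0.79 ± 0.09 for agonist against GPR39 (limma adjusted p = 0.00187). EIF2AK4, which encodes the amino acid sensor GCN2, read 5.68, 5.65 and 5.62 in the agonist arrays, 6.32, 6.28 and 6.28 in the GPR39 arrays and 6.57, 6.51 and 6.53 in the mock arrays. EIF2AK4 changed by -0.64 ± 0.06 for agonist against GPR39 (limma adjusted p = 0.000734) and by -0.88 ± 0.06 for agonist against mock (limma adjusted p = 6.32e-05). EIF2AK2, the double-stranded RNA sensor PKR, changed by -0.41 ± 0.07 and EIF2AK1, the haem-regulated kinase, by -0.32 ± 0.07 for agonist against GPR39 (limma adjusted p = 0.0091 and 0.0221). EIF2AK1 is named as the remaining kinase gene past the threshold, after its values were seen, and its call was lost without GPR39 replicates 1, 2 and 3 and agonist replicates 1 and 2 in turn, with adjusted p up to 0.0838. GCN1, the activator of GCN2, was lower in the agonist than in the mock arrays by -0.40 ± 0.07 (limma adjusted p = 0.00778). In all, 1 of 5 kinase list genes was called higher and 3 were called lower for agonist against GPR39. Of all named probe sets 3.59% were called higher and 9.28% lower in that comparison.

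Among the bZIP partners and feedback factors 0 of 6 passed for agonist against GPR39. ATF3, which is also an immediate-early gene, read 6.90, 6.45 and 6.93 in the agonist arrays, 6.17, 6.41 and 6.15 in the GPR39 arrays and 4.71, 4.86 and 4.99 in the mock arrays. Unlike the members, ATF3 passed for GPR39 against mock, at 1.39 ± 0.15 (limma adjusted p = 0.00533), and not for agonist against GPR39, at 0.52 ± 0.15 (limma adjusted p = 0.0683). Its agonist against GPR39 change passed with the stricter filter and without agonist replicate 2 (adjusted p down to 0.0221). ATF4 minus ATF3 differed between the GPR39 and mock arrays without overlap, by -1.25, and by 0.05 between the agonist and GPR39 arrays. ATF5, the closest relative of ATF4, changed by -0.04 ± 0.13 for agonist against GPR39 (limma adjusted p = 0.875). DDIT3, which encodes CHOP, and TRIB3, a pseudokinase that restrains ATF4, are common ATF4 targets and are named here after their values were seen. Their agonist against GPR39 changes were 0.31 ± 0.18 and 0.25 ± 0.12 (limma adjusted p = 0.362 and 0.278). TRIB3 read 5.53, 5.96 and 5.94 in the agonist arrays, against 5.53, 5.53 and 5.63 in the GPR39 arrays, and without agonist replicate 1 its change was 0.39 and passed (adjusted p = 0.0496).

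Of 6 serine, glycine and one-carbon genes 1 rose and 1 fell for agonist against GPR39. MTHFD1L, the mitochondrial formyltetrahydrofolate synthetase, rose by 0.40 ± 0.07 (limma adjusted p = 0.0136), a call lost without GPR39 replicates 1 or 3, with adjusted p up to 0.0531. The cytosolic serine hydroxymethyltransferase SHMT1 changed by -0.60 ± 0.08 (limma adjusted p = 0.00403), and its mitochondrial counterpart SHMT2 by 0.14 ± 0.08 (limma adjusted p = 0.325). SHMT2 was higher in the agonist than in the mock arrays, by 0.42 ± 0.08 (limma adjusted p = 0.00751). None of the 3 transsulfuration and glutathione genes passed for agonist against GPR39, and the glutathione synthetase GSS was lower in the agonist than in the mock arrays, by -0.65 ± 0.11 (limma adjusted p = 0.00688). Of 5 genes of other amino acid synthesis and asparagine turnover, the glutamine synthetase GLUL rose for agonist against GPR39, by 0.43 ± 0.06 (limma adjusted p = 0.00569). GLUL read 6.97, 7.06 and 6.99 in the agonist arrays, 6.58, 6.61 and 6.52 in the GPR39 arrays and 6.83, 6.92 and 6.87 in the mock arrays, so its agonist against mock change was 0.13 ± 0.06 (limma adjusted p = 0.213).

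Of 13 tRNA synthetase genes 3 rose and none fell for agonist against GPR39, with a list median of 0.05. The cysteine, glycine and serine enzymes CARS1, GARS1 and SARS1 rose by 0.39 ± 0.07, 0.35 ± 0.06 and 0.29 ± 0.07 (limma adjusted p = 0.0147, 0.0124 and 0.047). The call of CARS1 was lost without GPR39 replicates 1 or 3 (adjusted p up to 0.0595), that of GARS1 without GPR39 replicate 1 (adjusted p = 0.0515), and that of SARS1 without any of the 6 arrays compared but agonist replicate 1 (adjusted p up to 0.131). SARS1 passed under only 3 of 13 alternatives and was also lost with centring on the 75th percentile, quantile normalization, no filter and a fit of the 2 groups. In the agonist relative to the mock arrays 5 were higher, these 3 with TARS1 at 0.45 ± 0.06 and YARS1 at 0.40 ± 0.07, and 1 was lower, LARS1 at -0.25 ± 0.07 (limma adjusted p = 0.00249, 0.00639 and 0.0484). YARS1 and LARS1 were named after their values were seen, and the call of LARS1 was lost without any 1 of the 6 arrays compared, with adjusted p up to 0.121.

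Of 8 genes of mTORC1 and translation restraint, DDIT4, which encodes the mTORC1 inhibitor REDD1, rose for agonist against GPR39. DDIT4 read 6.47, 6.68 and 6.85 in the agonist arrays, 5.82, 5.95 and 5.58 in the GPR39 arrays and 6.16, 6.17 and 6.02 in the mock arrays, a change of 0.89 ± 0.12 for agonist against GPR39 (limma adjusted p = 0.00492). For agonist against mock it was 0.55 ± 0.12 (limma adjusted p = 0.0215), a call lost without mock replicates 2 or 3 or agonist replicates 2 or 3, with adjusted p up to 0.0688. EIF4EBP1, which encodes the cap-binding repressor 4E-BP1, was higher in the agonist than in the mock arrays by 0.47 ± 0.13 (limma adjusted p = 0.0409), and this call was lost without any of the 6 arrays compared but mock replicate 1, with adjusted p up to 0.111. Of 5 secreted and surface stress genes, STC1 and the angiogenic factor gene VEGFA rose for agonist against GPR39, VEGFA by 0.49 ± 0.10 (limma adjusted p = 0.0184), a call lost without any 1 GPR39 array, with adjusted p up to 0.0721. The lipoprotein receptor gene VLDLR was lower in the agonist than in the mock arrays, by -1.07 ± 0.16 (limma adjusted p = 0.00338).

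**Figure D4:**
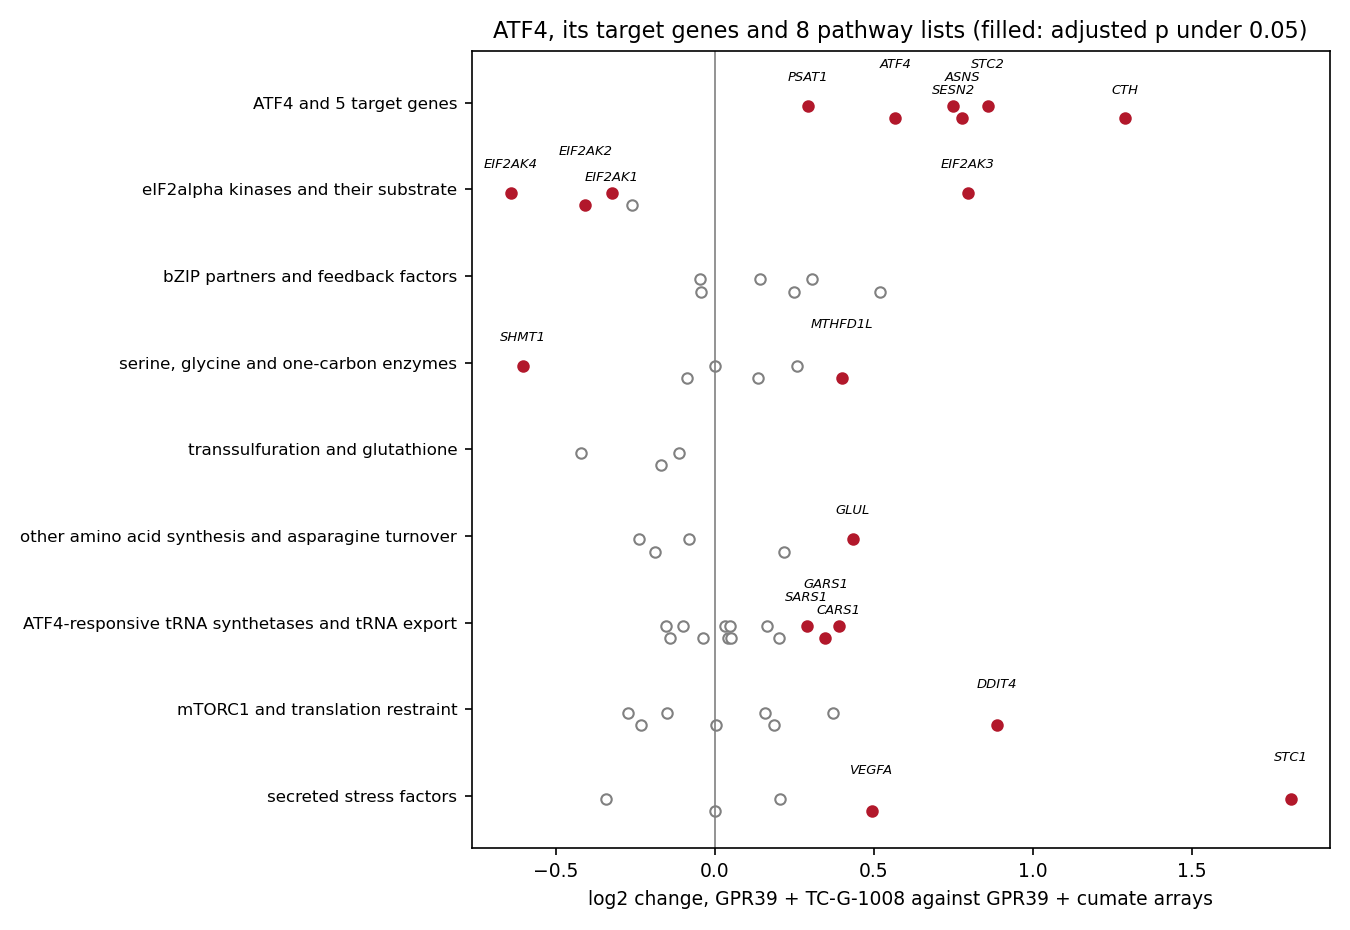
Log2 change for agonist against GPR39 (horizontal axis) of ATF4 and 5 target genes, in the top row, and of the tested genes of 8 pathway lists below, 1 point per gene, filled and named where the adjusted p was under 0.05. All 6 genes of the top row are filled and to the right of 0, while 9 genes of the lists are filled to the right and 4 to the left.

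The response element core shown for ASNS was also present before a start of 7 of the 38 list genes with a promoter in the table, AARS1, ATF3, FGF21, GARS1, IARS1, JDP2 and MTHFD1L. MTHFD1L held it before more than 1 start, so 8 of the 62 promoters of the list genes held it, or 12.9%. The share was 1.79% over promoters of all genes with a tested and named probe set. The lists were chosen as the wider pathway of ATF4, so these shares are not a test. Of the 7 genes, named here for the match, GARS1 and MTHFD1L rose for agonist against GPR39. AARS1, IARS1, JDP2, FGF21 and ATF3 changed by 0.04, 0.05, 0.14, 0.20 and 0.52, not past the threshold.

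The genes nearest to each member were found by the root mean square difference over the 9 arrays, among 12827 named probe sets. Log2 signals were first centred on their own means and not scaled. The measure therefore counts an unlike size of change as well as an unlike shape, and does not rank genes by shape. ATF4 was nearest to RRM2, a ribonucleotide reductase subunit gene, at 0.05, then to SNHG8 and CXCL14 at 0.06 and 0.07, where its own root mean square deviation was 0.31. ASNS was nearest to UAP1 and UGDH, 2 genes of nucleotide sugar synthesis, at 0.07 each, and then to CCND1 at 0.08. PSAT1 was nearest to CDV3, RMC1 and ZBTB2, at 0.04 to 0.05. CTH was nearest to DUSP1, NUDT11 and SERTAD1, at 0.10 to 0.11. STC2 was nearest to RHEBL1 at 0.05, then to PIM2 at 0.07 and PNPLA8 at 0.10. SESN2 was nearest to PMAIP1, MANF and MT2A, at 0.10 to 0.11. By this measure members were not each other's nearest genes. Their own root mean square deviations ran from 0.20 for PSAT1 to 0.76 for CTH. Members with the same shape but unlike size would therefore still lie apart, and likeness of shape was not measured. The closest pair was SESN2 and ASNS at 0.15, where 27 named probe sets outside the 6 genes were closer to SESN2 and 55 closer to ASNS. For STC2 the closest member was ASNS, also at 0.15, with 23 named probe sets closer, and for CTH it was STC2, at 0.26 with 30 closer. ATF4 was closest to PSAT1, at 0.15 with 220 closer to ATF4, and the farthest pair was PSAT1 and CTH at 0.57. The 9 arrays fall into 3 groups, and the measure was not tested.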

How the data were processed

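Biotin-labelled RNA was hybridised to 9 Affymetrix arrays of 1 colour, 3 per group, per the labels' protocols. The deposited table was taken to hold a log2 signal for each probe set, judged from its range of 0.717 to 13.5. The submitters' processing notes name MAS5 and no other tool; for its version, the background correction, any normalization between arrays and the log step, the sources used here give nothing. Precision is limited by the number of arrays. Probe sets were named by the platform annotation table, which gives 16098 of 53617 a symbol, updated by Entrez identifier in RefSeq genes of GRCh38.p14. Rows with no name were tested and not named.

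The 33376 probe sets that exceeded an array's own 40th percentile in at least 3 of 9 arrays were fitted together in limma 3.58.1 (R 4.3.3, lmFit and eBayes, residual df 6, prior df 2.12). Two-sided p-values were adjusted over all 33376 by the method of Benjamini and Hochberg, with a threshold of 0.05. The design foresaw linear or log2 values, and the values were used as log2 with no pseudocount. The script was tested on simulated data with known changes. The members and the 9 pathway lists were chosen with earlier results of these data known. Named genes were all members, up to 4 called genes per list with the smallest p, and 10 relatives and route neighbours (ATF3, ATF5, SESN1, SESN3, STC1, ASNSD1, PHGDH, PSPH, CBS, SHMT2). The 3 genes nearest to each member in root mean square difference were also named. The brightest probe set stood for a list gene with several. Alternatives were centring on the 75th percentile, quantile normalization, no filter, a filter at the 60th percentile, a replicate block, fits of 2 groups, an intensity trend with robust eBayes, and leaving out each array. Promoters came from RefSeq, GRCh38.p14, and all 6 members matched.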

Additional observations from a re-analysis of the deposited data

How the results depend on the processing

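For the 6 genes no direction changed in any comparison under any alternative. All 6 were called higher for agonist against mock under all 13 alternatives. For agonist against GPR39 5 or 6 were called under each, and PSAT1 was the call lost wherever it was 5. With the 75th percentile centring its adjusted p was 0.0678, with no filter 0.0643. For GPR39 against mock the count of 0 members became 2 with the stricter filter (CTH, adjusted p = 0.047, and STC2, adjusted p = 0.0426), 1 with the intensity trend (STC2, adjusted p = 0.0382) and 0 to 1 on leaving out an array. Calls higher over all probe sets rose as well, from 250 to 397 with the stricter filter, 428 with the trend and 416 without mock replicate 1. Shares of the probe sets tested were not worked out for the alternatives, so these gains are not a result about the members. None passed in the contrast of the 2 changes under any alternative.

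Over all probe sets, calls for GPR39 against mock numbered 391, against 637 with the stricter filter, 663 with the intensity trend, 190 with a fit of the 2 groups and 108 to 1323 on leaving out an array, the highest without mock replicate 1. For agonist against GPR39 they numbered 3025, against 1509 to 2264 on leaving out an array. For agonist against mock they numbered 5022, against 3133 with a fit of the 2 groups and 3493 to 4947 on leaving out an array. For the contrast of the 2 changes they numbered 343, against 187 with no filter, 608 with the stricter filter, 658 with the intensity trend and 48 to 776 on leaving out an array. The share called higher was 74.7% with centring on the 75th percentile and 63.9% as deposited for GPR39 against mock, and 56.2% and 40.6% for agonist against mock. Without mock replicate 1 the balance for GPR39 against mock turned, with 31.4% higher (416 higher, 907 lower). Fewer arrays are part of the construction of the fits that leave one out; the other causes were not tested.

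No pairing by replicate number was seen. Correlations of deviations from the group means ran from -0.101 to 0.0647 for same-numbered arrays of different groups. They ran from -0.129 to 0.119 for differently numbered ones. With the replicate block the counts were 150 for GPR39 against mock, 1819 for agonist against GPR39, 3955 for agonist against mock and 76 for the contrast, 5 members were called for agonist against GPR39, and PSAT1 had an adjusted p of 0.0784. The block also ended the calls of CARS1 (adjusted p = 0.0519), EIF2AK1 (0.0684), SARS1 (0.103) and VEGFA (0.0572) for agonist against GPR39, SESN3 (0.0958) for GPR39 against mock, and EIF4EBP1 (0.0635) and LARS1 (0.0992) for agonist against mock, and no other call of a named gene.

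Sign changes were confined to genes and comparisons that passed under no alternative. For GPR39 against mock, centring on the 75th percentile gave CBS 0.0344, EIF2AK1 0.0135, EIF2AK2 0.0308 and SHMT1 0.0347, and quantile normalization gave CBS 0.0081 and SHMT1 0.0009. Leaving out an array gave, in that comparison, -0.0918 to 0.0203 for SHMT1, -0.0825 to 0.0019 for EIF2AK1, -0.0613 to 0.0096 for EIF2AK2 and -0.1211 to 0.1861 for DDIT3. For agonist against GPR39 it gave -0.1376 to 0.0721 for ATF5, -0.0182 to 0.013 for PSPH and -0.0229 to 0.0495 for SESN1. The pseudocount alternatives were not run because the values are already on a log2 scale. Signal over background did not limit the members, which exceeded the dim limit in all 9 arrays.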
